A study of Homo sapiens with 4 samples.

Results

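The 10 histone deacetylase genes of classes I and II, HDAC1 to HDAC10, were followed across 12 RNA sequencing libraries of KP4, a pancreatic ductal adenocarcinoma (PDAC) cell line. They were found by their gene symbols in the table of stranded read counts, where each of the 10 has 1 row among 60651 genes. The family was taken up because HDAC9 was already known to stand higher in E5 cells under drug than in E5 cells under vehicle. That comparison is therefore described for every member without a p-value, and HDAC9 gets no test in any comparison with an E5 group. The HDAC9 test in control cells still uses the dispersion estimates of 1 model over all 12 libraries. Since the family was chosen with earlier results of these data known, that test is not independent of the choice.

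Control cells and E5 cells, which the series title calls resistant to FOLFIRINOX, were each given DMSO as vehicle or FOLFIRINOX for 96 h. The mixture contained SN-38 (what irinotecan is converted to in the body) at 25 nM, 10 µM of an agent written 5-F and 5 µM oxaliplatin. The labels give no transgene or engineered allele, and the series design mentions 5 cycles of the same treatment, given as DMSO or FOLFIRINOX, without saying how these cycles map to the name E5. Each of the 4 groups is 1 GEO sample with 3 numbered columns, counted here as n = 3 libraries, and since nothing says that they came from separate cultures, p-values measure only the spread between these columns. Gene reads per library ranged from 7359034 to 21775030. In bulk RNA, fewer cells of a kind and less RNA per cell cannot be told apart. Of the ductal markers, KRT18 lay at 160 to 670 CPM (read counts relative to library size, scaled by TMM) and KRT8 at 29.9 to 258, whereas KRT19 was at 0 to 4.5, EPCAM at 0.134 to 1.49 and CDH1 at 0.248 to 2.12. Of the mesenchymal markers, VIM was higher in E5 than in control vehicle libraries (2780 to 2940 against 2370 to 2620 CPM), and CDH2 (69.3 to 73.3 against 130 to 142) and ZEB1 (35 to 40.5 against 50.3 to 61.2) were lower. PTPRC, 1 of 4 leukocyte markers, moved with the groups: it lay at 48.5 to 54.6 CPM in control vehicle, 9.41 to 13.2 in control FOLFIRINOX and at most 0.134 in E5 libraries. The other leukocyte markers CD3E, CD68 and CD14 were at 0 to 0.643 CPM, with CD3E at 0 in 12 libraries. KRT18 and KRT8 moved with the groups too, at 160 to 189 and 29.9 to 35 CPM in control vehicle against 504 to 553 and 221 to 258 CPM in E5 vehicle libraries. KRT7 (0.906 to 1.54 against 6.29 to 7.03), CDH1 (1.09 to 1.44 against 1.74 to 2.12) and the fibroblast marker COL1A1 (3.66 to 4.17 against 14.8 to 16.3) were higher in E5 vehicle libraries as well. KRT19 was also higher there (0.81 to 1.37 against 4.28 to 4.5). EPCAM went the other way, at 0.555 to 0.667 CPM in control and 0.134 to 0.425 in E5 vehicle libraries. So did the fibroblast marker COL3A1 (1.2 to 1.72 against 0.535 to 1.13), while DCN, also a fibroblast marker, was at 0 in both groups. Under drug, control libraries lay higher than under vehicle for KRT18 (357 to 385 CPM), KRT8 (53.4 to 66.4), KRT7, EPCAM and ZEB1. They lay lower for CDH1 (0.248 to 0.385 CPM), VIM (2010 to 2170), KRT19, CDH2, COL1A1 and COL3A1. The part of these shifts in the results below was not tested.

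Histone deacetylases remove acetyl groups from lysines of histones and other proteins. Class I enzymes (HDAC1, HDAC2, HDAC3 and HDAC8) are mostly nuclear, and all but HDAC8 work inside corepressor complexes. Class IIa enzymes (HDAC4, HDAC5, HDAC7 and HDAC9) have little catalytic activity of their own on acetyl-lysine, bind transcription factors of the MEF2 family and shuttle between nucleus and cytoplasm when kinases phosphorylate them. Class IIb holds HDAC6, a cytoplasmic tubulin deacetylase, and HDAC10, a polyamine deacetylase. The HDAC9 gene is a known transcriptional target of MEF2 in muscle.

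HDAC9 (ENSG00000048052.23, chromosome 7, 18086949 to 19002416, plus strand, GRCh38) is the member whose level varied most, and RefSeq lists several start sites for it. Windows from 250 bases before to 50 bases after each RefSeq start (GRCh38.p14) were available for 9 of the 10 members, in 19 windows, 5 of them for HDAC9; HDAC5 had none. HDAC9 and HDAC4, members of the same class, were picked for display because they moved in opposite directions in control cells. Printed are HDAC9 windows with a match and 1 of several HDAC4 windows. The HDAC9 window at 18496012 holds no match and is not printed. Whether the motifs bear on the drug responses was not tested. Capitals mark CTATTTTT, an A/T-rich core of the MEF2 element, or the full MEF2 consensus, both searched on both strands; these motifs were chosen after the windows had been read. The reads per gene do not say which start was used.
HDAC9, chr7:18086575-18086874, plus strand: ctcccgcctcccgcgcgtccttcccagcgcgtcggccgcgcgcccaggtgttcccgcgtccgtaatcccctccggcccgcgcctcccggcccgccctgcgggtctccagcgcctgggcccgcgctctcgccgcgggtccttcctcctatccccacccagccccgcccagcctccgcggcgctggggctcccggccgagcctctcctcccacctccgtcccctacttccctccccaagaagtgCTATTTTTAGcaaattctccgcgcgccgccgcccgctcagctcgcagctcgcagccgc
HDAC9, chr7:18495499-18495798, plus strand: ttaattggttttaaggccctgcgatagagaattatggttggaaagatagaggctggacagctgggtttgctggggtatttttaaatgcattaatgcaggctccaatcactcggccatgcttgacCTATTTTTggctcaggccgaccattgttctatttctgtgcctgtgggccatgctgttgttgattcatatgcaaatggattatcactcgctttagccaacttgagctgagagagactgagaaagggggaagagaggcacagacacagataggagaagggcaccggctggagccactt
HDAC9, chr7:18509020-18509319, plus strand: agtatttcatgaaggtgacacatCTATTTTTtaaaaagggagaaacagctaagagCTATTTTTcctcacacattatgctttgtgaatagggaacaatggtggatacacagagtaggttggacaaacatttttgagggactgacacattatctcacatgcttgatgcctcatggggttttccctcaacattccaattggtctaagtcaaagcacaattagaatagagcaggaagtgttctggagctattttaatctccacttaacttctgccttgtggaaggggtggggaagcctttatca
HDAC4, chr2:239401600-239401899, minus strand: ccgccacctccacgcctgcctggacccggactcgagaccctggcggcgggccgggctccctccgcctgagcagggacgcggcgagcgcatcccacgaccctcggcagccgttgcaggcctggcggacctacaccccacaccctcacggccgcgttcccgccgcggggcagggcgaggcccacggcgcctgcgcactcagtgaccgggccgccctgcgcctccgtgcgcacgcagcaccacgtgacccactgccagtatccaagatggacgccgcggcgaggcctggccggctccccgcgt
The first HDAC9 window, at the most upstream of its listed starts, is 75% G and C and holds 1 MEF2 consensus from base 243 to base 252, which contains CTATTTTT and reads as the consensus on both strands. The window at 18495499 holds CTATTTTT once, at base 125, and overlaps another HDAC9 window with the same match. The window at 18509020 holds it at bases 24 and 56, and is 40% G and C. Among all 35116 RefSeq windows of the same length, 1.36% hold CTATTTTT and 2.99% the MEF2 consensus. Since the motifs were picked from the windows themselves, nothing is read from how often they occur there. A match of letters is not a binding site, and these data do not measure binding.

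Levels of different genes were compared in the authors' FPKM, which are scaled for gene length and library size. In control cells under vehicle, HDAC2 stood highest at 137 ± 4.16 FPKM (SD, n = 3), followed by HDAC1 at 117 ± 3.34 and HDAC3 at 57.6 ± 1.95. HDAC6 at 43.8 ± 4.06 and HDAC8 at 40.4 ± 0.578 had overlapping libraries. HDAC9 at 10.2 ± 1.51, HDAC7 at 8.92 ± 0.888 and HDAC5 at 7.59 ± 1.13 could not be ordered beyond their spread, and neither could HDAC10 at 3.48 ± 1.03 and HDAC4 at 2.81 ± 0.207. HDAC1, HDAC2 and HDAC3 of class I thus stood highest, while HDAC8, of the same class, stood with HDAC6 of class IIb. Some places depend on the scale used: from counts per kilobase of merged GENCODE v29 exons HDAC1 ranked 1, HDAC3 2, HDAC2 3 and HDAC8 9 in these libraries, the last of these below each class IIa gene. On that scale HDAC10 lay below HDAC4, at 0.133 against 1.97 CPM per kilobase.

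**Figure D1:**
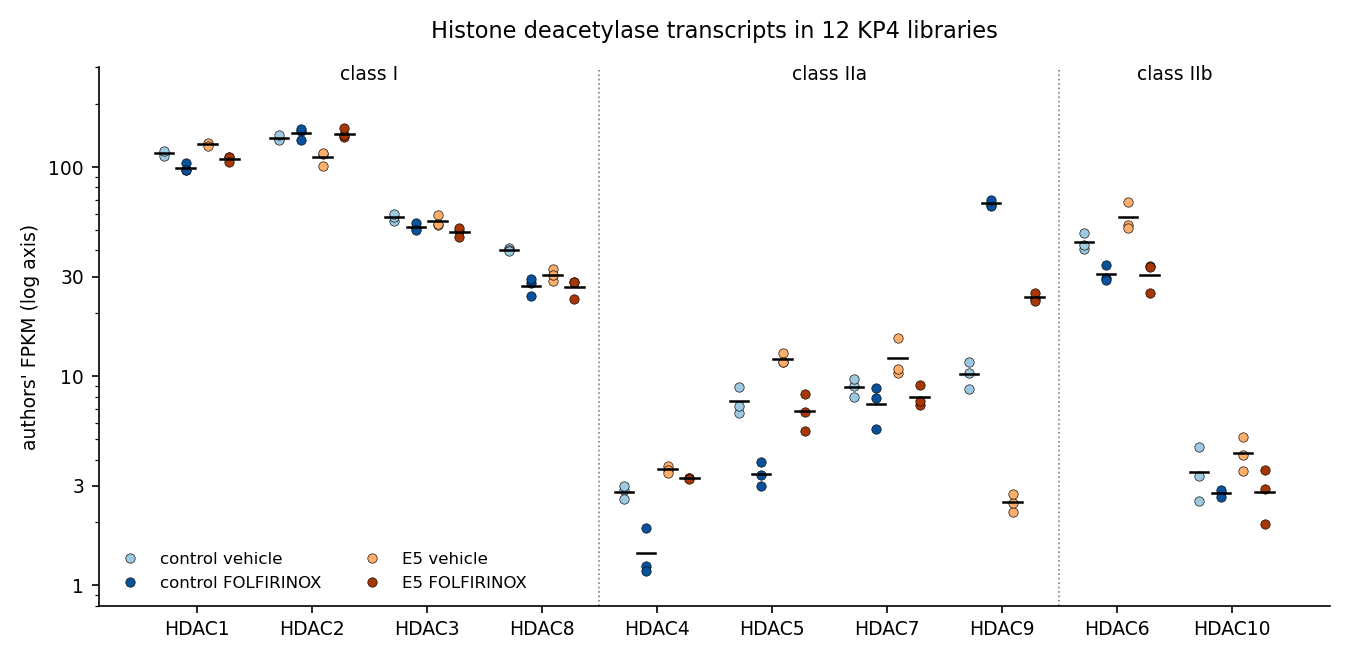
Authors' FPKM on a log axis for each of the 10 genes, 1 point per library and a bar at the mean of the 3 libraries of a group. HDAC9 spans from 2.25 FPKM in an E5 vehicle library to 69.95 in a control FOLFIRINOX library, while HDAC1, HDAC2 and HDAC3 stay within a narrow band.

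The question of the first comparison was how control cells answered 96 h of drug. HDAC9 rose about 6-fold and 7 other members fell, with HDAC4, HDAC5 and HDAC6 falling to less than 0.5 of their vehicle level. Of 10 members tested, 1 rose, 7 fell and 2 did not pass, where 65.3% of all 15636 tested genes were called, 32.6% higher and 32.7% lower. The members' median log2 fold change was -0.39, beside 0.00 over all tested genes. For 8 of the 10 the CPM of treated and untreated libraries did not overlap, as for 67.0% of all tested genes. All tests here are edgeR quasi-likelihood tests with Benjamini-Hochberg adjustment over all tested genes, and fold changes are on counts.

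HDAC9 lay at 43.5, 46.1 and 39.4 CPM in the control vehicle libraries and at 265, 248 and 281 CPM in the control FOLFIRINOX libraries. Every treated library was thus above every untreated one, with no overlap. The log2 fold change was 2.62 ± 0.079 (SE), a fold of 6.16, adjusted p = 2.4e-13 by edgeR. This p-value is not independent of how the family was chosen. By FPKM the gene went from 10.2 ± 1.51 to 67.3 ± 2.37, which moved it from the sixth to the third place in the family, and from the seventh to the fourth by counts per kilobase.

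HDAC4, a class IIa corepressor of MEF2 (ENSG00000068024.17, chromosome 2, 239048168 to 239401654, minus strand), lay at 26.4, 27.6 and 24.9 CPM under vehicle. Under drug its control libraries held 10.9, 11.1 and 9.02 CPM. The treated libraries were all lower, and the log2 fold change was -1.36 ± 0.091, adjusted p = 1.3e-09 by edgeR, or -0.66 with limma on log2(FPKM + 1). Adding 1 to FPKM shrinks fold changes at low levels, and the group means of HDAC4 lay at 1.43 to 3.59 FPKM. HDAC5 (ENSG00000108840.15, chromosome 17, 44076746 to 44123702, minus strand), its close relative, went from 23.5, 19.8 and 23.6 CPM to 7.96, 11.4 and 9.3 CPM. Its groups did not overlap either, and it fell at log2 -1.17 ± 0.118, adjusted p = 1.7e-07 by edgeR. HDAC7 (ENSG00000061273.18, chromosome 12, 47782722 to 47833132, minus strand), known for its part in endothelial and thymic cells, held 25.7, 26.5 and 30.8 CPM and then 14, 22.1 and 17.6 CPM. It fell at log2 -0.59 ± 0.123, adjusted p = 0.00043 by edgeR. On the authors' FPKM the HDAC7 libraries overlapped, and with limma on log2(FPKM + 1) the change was -0.25 with adjusted p = 0.21.

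Since HDAC9 rose while its relatives fell, the make-up of class IIa transcripts changed. Summed FPKM of HDAC4, HDAC5, HDAC7 and HDAC9 was 29.6 ± 1.53 in control vehicle and 79.5 ± 2.22 in control FOLFIRINOX libraries. HDAC9 made up 34.7% ± 4.87 of that sum under vehicle and 84.6% ± 1.32 under drug. The other members of the class summed to 19.3 ± 1.82 and 12.3 ± 1.02 FPKM. In E5 cells the class summed to 30.4 ± 2.29 FPKM under vehicle and 41.9 ± 1.66 under drug, with HDAC9 shares of 8.29% ± 1.39 and 56.9% ± 0.298. These sums and shares are a description without a test. From counts per kilobase of merged GENCODE v29 exons the HDAC9 shares were 25%, 80.4%, 6.02% and 46.6% in control vehicle, control FOLFIRINOX, E5 vehicle and E5 FOLFIRINOX libraries, so the order of the groups was the same on this scale.

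**Figure D2:**
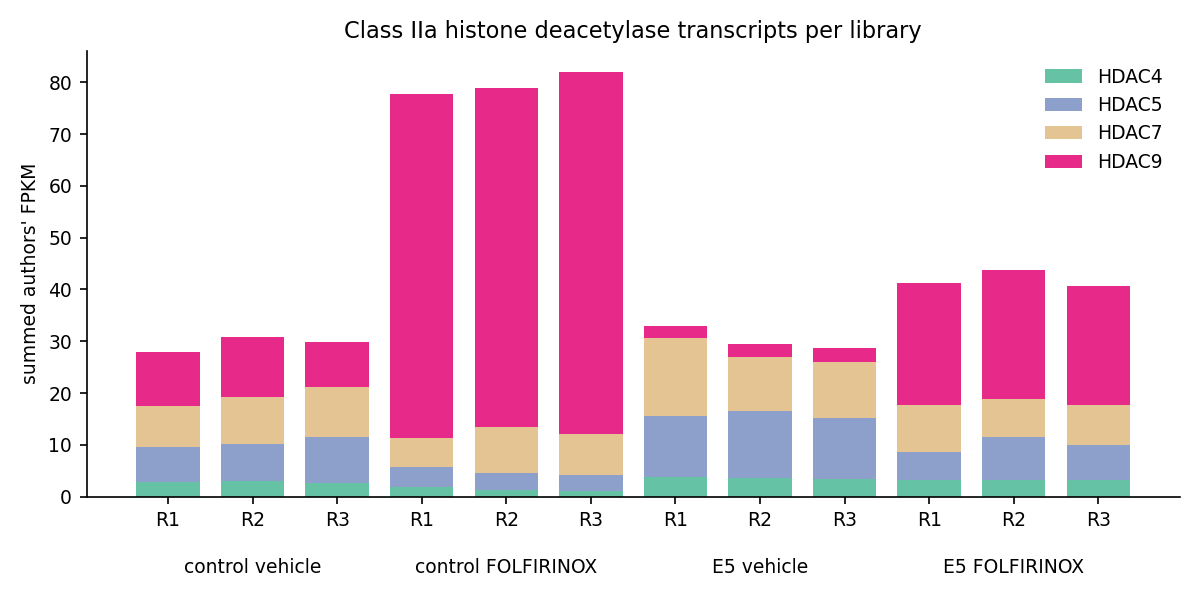
Stacked bars give the authors' FPKM of the class IIa genes HDAC4, HDAC5, HDAC7 and HDAC9 in each of the 12 libraries (R1 to R3 within a group). The HDAC9 segment makes up 83 to 85.3% of the bar in control FOLFIRINOX libraries and 6.82 to 9.58% in E5 vehicle libraries.

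Among class I genes the changes in control cells were smaller. HDAC1, the catalytic subunit of SIN3, NuRD and CoREST complexes (ENSG00000116478.12, chromosome 1, 32292083 to 32333635), held 277, 265 and 286 CPM under vehicle and 209, 219 and 213 CPM under drug. All treated libraries were lower, at log2 -0.37 ± 0.051, adjusted p = 7.7e-06 by edgeR, or -0.23 on log2(FPKM + 1). HDAC3, the enzyme of the NCoR and SMRT complexes, fell at log2 -0.42 ± 0.064, adjusted p = 2.5e-05 by edgeR, with vehicle libraries at 104 to 114 CPM and treated ones at 75.7 to 85.7 CPM. With limma on log2(FPKM + 1), HDAC3 stood at -0.15, adjusted p = 0.061, and on that scale the median of all genes was itself 0.15 above 0. HDAC8, which acts outside these complexes and deacetylates cohesin, fell at log2 -0.37 ± 0.092, adjusted p = 0.0023 by edgeR, with vehicle libraries at 31.9 to 33.2 CPM and treated ones at 22.9 to 27.1 CPM. On log2(FPKM + 1) HDAC8 stood at -0.57. HDAC2, the close partner of HDAC1, held 306, 311 and 315 CPM under vehicle and 302, 276 and 306 CPM under drug. Its groups overlapped, and the value of -0.08 ± 0.067 (95% interval -0.23 to 0.08) did not pass, adjusted p = 0.32 by edgeR. On FPKM it stood at 0.08, on the other side of 0. Summed class I FPKM was 352 ± 8.33 under vehicle and 324 ± 4.46 under drug.

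In class IIb, HDAC6 (ENSG00000094631.21, chromosome X, 48801377 to 48824982, plus strand) held 65.4, 63.8 and 66.7 CPM in control vehicle and 33.4, 32.5 and 30.1 CPM in control FOLFIRINOX libraries. The groups stood well apart, at log2 -1.03 ± 0.080, adjusted p = 7.9e-09 by edgeR. By FPKM its decrease was smaller, from 43.8 ± 4.06 to 30.8 ± 2.69, and limma on log2(FPKM + 1) gave -0.49. HDAC10 had only 36 and 30 reads over the control vehicle and control FOLFIRINOX libraries, and its value of -0.19 ± 0.402 (95% interval -1.12 to 0.74) did not pass, adjusted p = 0.69 by edgeR. Of its merged GENCODE v29 exon bases, 55.8% are shared with exons of MAPK12 on the same strand, so its level is uncertain and a difference of the size seen in most other members was not detectable at this depth. HDAC8 shares 5.19% of its exon bases with AL133500.1, and the other 8 members share none on their strand.

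**Figure D3:**
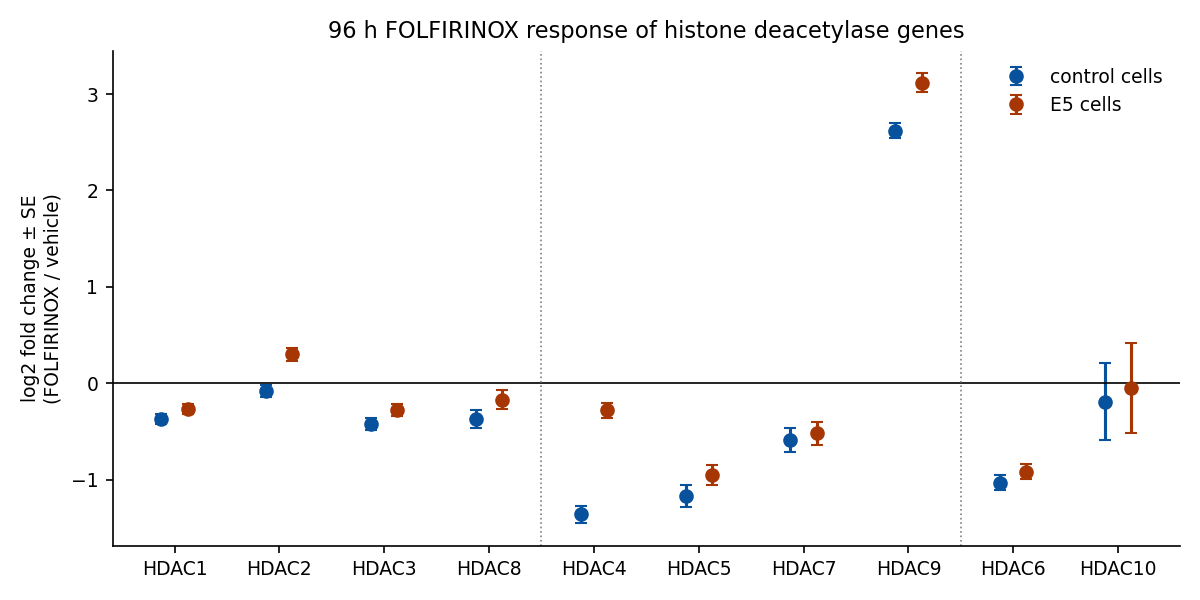
Points are log2 fold changes of FOLFIRINOX against vehicle from the counts, with SE, in control cells and E5 cells (3 libraries a group). HDAC9 stands at 2.62 and 3.12, and HDAC4 at -1.36 in control cells and -0.28 in E5 cells.

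In E5 cells the same drug was given, and the values are described without p-values. HDAC9 lay at 9.76, 12.2 and 12.8 CPM under vehicle and at 99.5, 106 and 103 CPM under drug. The treated libraries were all higher, at log2 3.12 ± 0.096. HDAC4 lay at 36, 36 and 34.7 CPM and then at 29.6, 29.8 and 28.3 CPM, log2 -0.28 ± 0.079. HDAC5 stood at -0.95 ± 0.106, HDAC6 at -0.92 ± 0.078 and HDAC7 at -0.52 ± 0.119, all with treated libraries below vehicle libraries. HDAC1 and HDAC3 stood at -0.27 ± 0.051 and -0.28 ± 0.064, HDAC8 at -0.17 ± 0.097 and HDAC10 at -0.05 ± 0.469. HDAC2 lay at 236, 258 and 273 CPM under vehicle and 293, 311 and 339 CPM under drug, log2 0.30 ± 0.067. In CPM, 8 of the 10 members had groups that did not overlap, beside 59.7% of all tested genes. By the test, 52.3% of all genes were called here (25.0% higher, 27.3% lower), and no count of called members is given. Nothing is read from the count of 8 because HDAC9 was chosen on this comparison.

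Whether the drug response differed between the cells was tested for the 9 members other than HDAC9, and 2 differed, both with a higher value in E5 cells, 0 with a lower one and 7 did not pass; none was lower at an unadjusted p under 0.05 by edgeR or past the threshold by DESeq2. Over all tested genes 25.7% were called, 13.3% higher and 12.4% lower. HDAC4 differed most, by log2 1.07 ± 0.120, adjusted p = 8.7e-06 by edgeR, with its response of -1.36 in control cells beside -0.28 in E5 cells. On log2(FPKM + 1) the HDAC4 difference was 0.55, adjusted p = 0.04 by limma. HDAC2 differed by 0.38 ± 0.094, adjusted p = 0.0081 by edgeR, a call that ended with limma on log2(FPKM + 0.1), at 0.30 and adjusted p = 0.05. For HDAC5 the difference was 0.22 (95% interval -0.14 to 0.59), for HDAC6 0.12 (-0.14 to 0.37, or -0.39 as the value on log2(FPKM + 1)) and for HDAC7 0.07 (-0.32 to 0.47), none of which passed. HDAC1 at 0.10, HDAC3 at 0.14, HDAC8 at 0.19 and HDAC10 at 0.14 did not pass either. The HDAC9 responses differed by 0.50 ± 0.124, given as a description, and by 0.22 on log2(FPKM + 1). That scale shrinks fold changes at low levels, and HDAC9 stood at 2.5 FPKM in E5 vehicle libraries. On log2(FPKM + 1) the median of all genes in this difference was itself -0.10.

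Without drug, E5 cells were set against control cells to see what distinguished the lines. HDAC9 was lower in E5 cells, at 11.6 ± 1.63 against 43 ± 3.35 CPM, log2 -1.86 ± 0.099, which made it the lowest of the 10 members by FPKM and the ninth by counts per kilobase. Of the 9 other members, 5 were higher, 2 lower and 2 did not pass, where 44.4% of all tested genes were called, 22.1% higher and 22.2% lower. Their CPM did not overlap between the lines for 7 of 9, as for 54.8% of all tested genes. HDAC5 was higher in E5 cells by log2 0.68 ± 0.105, adjusted p = 5.2e-05 by edgeR, at 35.4 ± 1.46 against 22.3 ± 2.16 CPM. HDAC4 was higher by 0.43 ± 0.081, adjusted p = 0.00031 by edgeR, which limma on log2(FPKM + 1) gave as 0.27 with adjusted p = 0.1. HDAC6 was higher by 0.26 ± 0.076, adjusted p = 0.01 by edgeR, but not past the threshold without E5 vehicle replicate 1 (0.20, adjusted p = 0.06). HDAC8 and HDAC2 were lower, at -0.46 ± 0.095, adjusted p = 0.00073, and -0.28 ± 0.067, adjusted p = 0.0025 by edgeR. HDAC7 at 0.30 ± 0.118, adjusted p = 0.048, and HDAC1 at 0.14 ± 0.051, adjusted p = 0.034 by edgeR, passed only narrowly. HDAC7 no longer passed when any of 6 libraries was omitted: replicate 1 (0.26) or 2 (0.26) of control vehicle, 1 (0.25) or 3 (0.30) of E5 vehicle, and 1 (0.30) or 2 (0.30) of E5 FOLFIRINOX. HDAC1 no longer passed when any of 5 was omitted, namely replicate 1 (0.14) or 2 (0.11) of control vehicle and replicate 1 (0.14), 2 (0.13) or 3 (0.15) of E5 vehicle. HDAC3 stood at -0.06 and HDAC10 at -0.38, and neither passed.

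Under FOLFIRINOX the lines were set against each other again, with libraries shared with the comparisons above. HDAC9 lay at 265 ± 16.6 CPM in control and 103 ± 3.42 CPM in E5 cells, log2 -1.36 ± 0.075, a description. HDAC4 was higher in E5 cells, at 29.2 ± 0.818 against 10.3 ± 1.15 CPM, log2 1.51 ± 0.090, adjusted p = 3.1e-10 by edgeR, or 0.82 on log2(FPKM + 1). HDAC5 was higher by 0.90 ± 0.119, adjusted p = 6.3e-06 by edgeR, and HDAC1 by 0.24 ± 0.051, adjusted p = 0.00066. HDAC6 was higher by 0.38 ± 0.081, adjusted p = 0.00079 by edgeR, on counts, whereas limma on log2(FPKM + 1) gave -0.02, adjusted p = 0.93. On log2(FPKM + 1) the median of all genes in this comparison was itself -0.11. HDAC7 at 0.37 ± 0.123, adjusted p = 0.016 by edgeR, lost its call without control FOLFIRINOX replicate 1 (0.27) or 3 (0.35) and on log2(FPKM + 1) (0.11). HDAC8 at -0.27 ± 0.095, adjusted p = 0.023 by edgeR, lost it without control FOLFIRINOX replicate 1 (-0.25) or 3 (-0.19), without E5 FOLFIRINOX replicate 1 (-0.25) or 2 (-0.27), with DESeq2 (-0.27) and on log2(FPKM + 1) (-0.02). The HDAC8 call was also lost with no filter and on log2(FPKM + 0.1), and the HDAC7 call on log2(FPKM + 0.1). Of the 9 members other than HDAC9, 5 were higher, 1 lower and 3 did not pass, beside 54.3% of all tested genes (26.7% higher, 27.6% lower). The 3 were HDAC2 at 0.09, HDAC3 at 0.07 and HDAC10 at -0.24. Their CPM did not overlap for 6 of 9, beside 57.2% of all tested genes.

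The genes whose log2 CPM followed that of HDAC9 most closely over the 12 libraries, among 12649 other protein-coding genes tested, were CCDC58, MGME1, STAMBPL1, GLRX3 and MRPS22, with Pearson r of 0.9909, 0.9904, 0.9904, 0.9894 and 0.9881. STAMBPL1 went from 30.9 to 69 CPM with drug in control cells and from 21.5 to 48 CPM in E5 cells. Within the family, r with HDAC9 was -0.97 for HDAC1 and HDAC6, -0.96 for HDAC5, -0.91 for HDAC7, -0.83 for HDAC4 and -0.82 for HDAC3. It was 0.59 for HDAC2, -0.03 for HDAC8 and 0.04 for HDAC10. All these values describe 12 libraries that share 4 group means, with no test.

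Partners of class IIa enzymes include the MEF2 transcription factors, the YWHA adaptor proteins that hold phosphorylated enzymes in the cytoplasm, and the kinases that phosphorylate them. Of 27 such genes tested in control cells under drug, 7 passed as higher and 14 as lower, the other 6 passed neither way, and the median was -0.32. Over all tested genes, 32.6% were called higher and 32.7% lower. MEF2C, a transcription factor that class IIa enzymes repress, rose from 3.46 ± 0.431 to 12.4 ± 1.12 CPM, log2 1.83 ± 0.136, adjusted p = 3.4e-09 by edgeR. BCL6, a repressor that binds class IIa enzymes, rose by 0.95 ± 0.092, the kinase CAMK2G fell at -1.13 ± 0.068 and RFXANK, an ankyrin protein that binds HDAC4, fell at -1.20 ± 0.132. The largest adjusted p among these was 4.5e-07 by edgeR. Chosen after their values were seen, MEF2A rose by 0.45 ± 0.093 and MEF2D fell at -0.32 ± 0.094, and the most changed YWHA gene, YWHAG, fell at -0.63 ± 0.047. In the difference of the drug responses, 7 of 27 passed as higher in E5 cells and 2 as lower (median 0.14), beside 13.3% higher and 12.4% lower over all genes, with MEF2C at -1.43 ± 0.194, adjusted p = 5.7e-05 by edgeR. MEF2C lay at 5.32 ± 0.669 and 6.93 ± 0.496 CPM in E5 cells under vehicle and drug. CAMK4, a kinase of class IIa enzymes, was higher in E5 than in control cells by 2.68 ± 0.148 under vehicle, adjusted p = 6e-11, and 3.23 ± 0.149 under drug, adjusted p = 5e-12 by edgeR.

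Partners of class I enzymes are the subunits of the SIN3, NuRD, CoREST, NCoR and related complexes. Of 40 tested in control cells under drug, 23 passed as lower, 9 as higher and 8 neither way, and the median was -0.25. Here too the shares over all tested genes were 32.7% lower and 32.6% higher. The NCoR complex scaffold NCOR1 fell from 348 ± 18.6 to 161 ± 6.39 CPM, log2 -1.11 ± 0.066, adjusted p = 4.4e-10 by edgeR. TBL1X, another subunit of that complex, fell from 101 ± 4.03 to 22.5 ± 1.07 CPM, log2 -2.15 ± 0.087, adjusted p = 4.8e-12 by edgeR. ZMYM3 of a CoREST complex fell at -0.86 ± 0.077 and the SIN3 subunit ING2 rose by 0.92 ± 0.088. In the difference of the drug responses, 8 of 40 passed as higher in E5 cells and 5 as lower (median 0.03), beside 25.7% of all genes called. TBL1X differed by 1.05 ± 0.120, adjusted p = 1.1e-05, and NCOR1 by 0.83 ± 0.094, adjusted p = 1e-05 by edgeR. In E5 cells TBL1X went from 78.6 to 36.6 CPM with drug, and NCOR1 from 216 to 177 CPM. Between the lines TBL1X was lower in E5 cells under vehicle (-0.36) and higher under drug (0.69). NCOR1 was lower in E5 cells under vehicle (-0.69) and did not differ past the threshold under drug (0.14, adjusted p = 0.095 by edgeR). Between the lines under vehicle, 15 of 40 passed as lower in E5 cells and 2 as higher (median -0.14), beside 44.4% of all genes called (22.1% higher, 22.2% lower), with RCOR2, a CoREST subunit, at -1.76 ± 0.224, adjusted p = 2.4e-06 by edgeR.

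Around HDAC6, 7 of 11 tested partners and substrates passed as lower in control cells under drug, 2 as higher and 2 neither way, with a median of -0.24. The tubulin genes TUBA1A and TUBA1B, whose protein HDAC6 deacetylates, fell at -1.54 ± 0.069 and -0.94 ± 0.074, and VCP, which releases ubiquitin from HDAC6, fell at -1.29 ± 0.053. The autophagy receptor SQSTM1 rose by 1.32 ± 0.064. The largest adjusted p among these genes was 1.1e-08 by edgeR. Among acetyltransferases and acetyl-lysine readers, 10 of 24 passed as lower, 7 as higher and 7 neither way (median -0.09), with the reader BRPF3 at 1.11 ± 0.078 and the acetyltransferase KAT5 at -0.87 ± 0.092. Of the other deacetylases, the class IV enzyme HDAC11 and the sirtuins, 2 of 8 passed as higher, 2 as lower and 4 neither way (median 0.07). HDAC11 fell at -0.98 ± 0.167, adjusted p = 6e-05, the mitochondrial sirtuin SIRT3 fell at -0.92 ± 0.10, adjusted p = 4.4e-07, and SIRT1 rose by 0.49 ± 0.074, adjusted p = 2.3e-05 by edgeR. The list counts for control cells under drug stand beside the share of 65.3% called over all genes (32.6% higher, 32.7% lower).

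**Figure D4:**
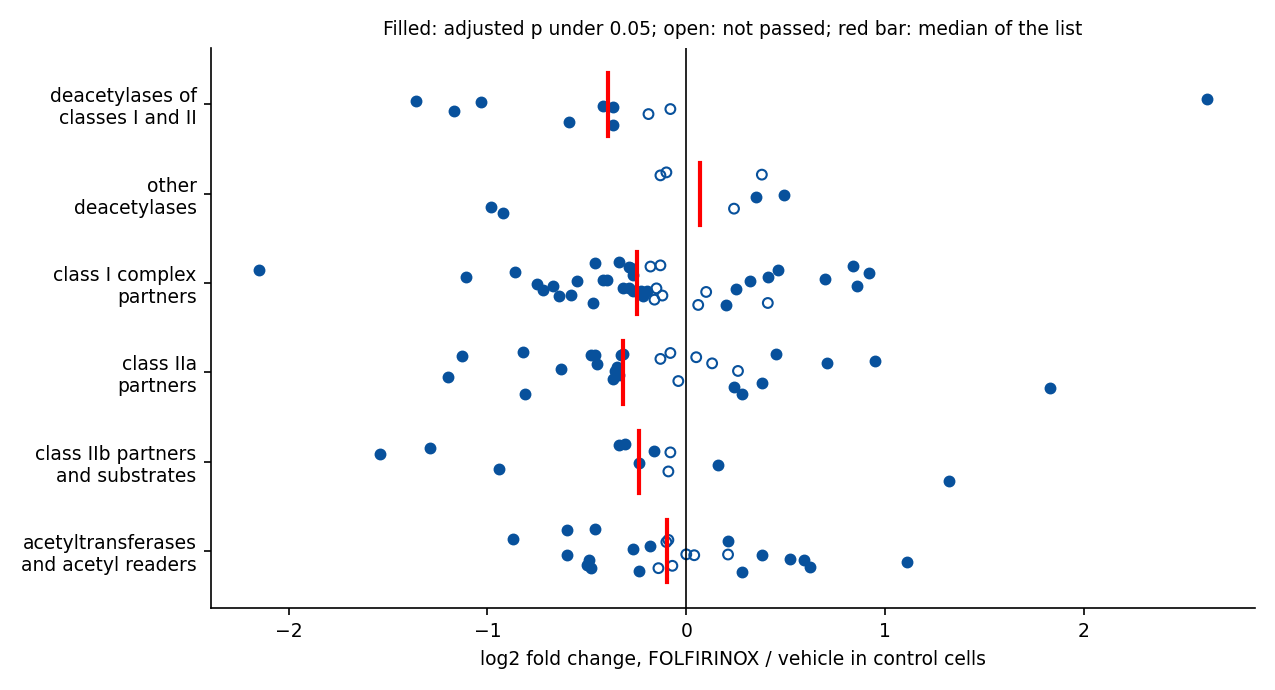
Each point is 1 tested gene, at its log2 fold change of FOLFIRINOX against vehicle in control cells, in 6 gene groups; filled points passed at an adjusted p under 0.05 and red bars are medians. HDAC9 at 2.62 is the point farthest to the right, and the members' median lies at -0.39.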

How the data were processed

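Stranded read counts per gene were deposited without scaling in 12 columns, tied to the 4 GEO samples by their names, per the file headers. Trimmomatic, the aligner STAR 2.5.1b and the build GRCh38 are named in the submitters' processing notes. FPKM values were computed by the authors, and their rlog values are regularised log2 counts. The programs behind both are not given in the sources used here. Rows of reads outside genes (23 to 25.8% of all reads) were left out.

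Counts were tested with edgeR 4.0.16 (quasi-likelihood, TMM, filterByExpr) in R 4.3.3 over 15636 genes in 1 model of 4 group means, with Benjamini-Hochberg adjustment at 0.05. All 10 members passed the filter. SE came from the fitted means and dispersions, and 95% intervals used 8 residual degrees of freedom. Alternatives used DESeq2 1.42.0, limma 3.58.1 on the authors' FPKM and rlog, other scalings, no filter and left-out libraries. Correlations used log2(CPM + 0.5).

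The members and lists were chosen with earlier results of these data known. Named genes were the members, in each list and comparison up to 4 genes that changed most among those averaging 1 CPM or more, and the 5 protein-coding genes most like HDAC9; not every gene so named is printed. Of 41 class I partners 40 were tested, and of 28 class IIa partners 27.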

Additional observations from a re-analysis of the deposited data

Results flagged for a closer look

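The drug response of HDAC4 differed between E5 and control cells by log2 1.07 in the test of the difference, with 3 of 3 treated libraries below 3 of 3 vehicle libraries in each line. Over 21 alternatives the difference ranged from 0.55 to 1.17 and its adjusted p from 2.5e-11 to 0.04.

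The drug response of HDAC2 differed by log2 0.38 in the same test, with -0.08 in control cells and 0.30 in E5 cells. Between the lines HDAC2 was lower in E5 cells under vehicle (-0.28, adjusted p = 0.0025 by edgeR). Under drug the lines did not differ past the threshold (0.09, adjusted p = 0.25 by edgeR). Over 21 alternatives it ranged from 0.25 to 0.43 and its adjusted p from 0.0015 to 0.05.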

How the results depend on the processing

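Over 22 alternatives HDAC9 in control cells under drug ranged from 1.83 to 2.76 (log2), the lowest on rlog values, which shrink differences, and passed in each. Of 804 values of members with a test, 762 kept their side of the threshold, 40 lost the call and 2 reversed a call. These 2 were HDAC6 between drugged lines at -0.02 on log2(FPKM + 1) and -0.02 on log2(FPKM + 0.1). The medians of all genes on these scales were -0.11 and -0.12. A change of sign was not counted where neither value passed, as for HDAC2 in control cells under drug (-0.12 to 0.08). Of 284 values without a test, 262 stayed within the library spread.

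Between the lines under vehicle, the 5 higher members other than HDAC9 became 3 with total counts only, 3 on log2(FPKM + 1), 3 on log2(FPKM + 0.1) and 3 with the replicate block, and 2 to 5 when 1 library was left out. Under drug, the 5 higher became 3 on log2(FPKM + 1) and 3 on log2(FPKM + 0.1). The 1 lower became 0 with no filter, 0 with DESeq2, 0 on log2(FPKM + 1) and 0 on log2(FPKM + 0.1), and 0 to 1 when 1 library was left out. The 2 differing drug responses became 1 on log2(FPKM + 0.1). The causes were not tested.

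By counts per kilobase, an alternative chosen after seeing the data, HDAC9 ranked 7 in place of 6 in control vehicle, 4 in place of 3 in control FOLFIRINOX, 9 in place of 10 in E5 vehicle and 4 in place of 6 in E5 FOLFIRINOX libraries. Its share of class IIa was then 25%, 80.4%, 6.02% and 46.6%.

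Equal column numbers showed no clear pairing of the libraries: 5 of 18 same-numbered pairs had a correlation of deviations over 0.1 (range -0.276 to 0.201), and 3 of 12 libraries correlated best with their own number. With 3 libraries a group this check cannot exclude a batch shared by equal numbers. With total counts only the median of all genes in control cells under drug lay at 0.14. Depth limits HDAC10, with 20 to 36 reads a group. HDAC10 gave no value in E5 cells under drug from only the 2 groups compared, where it did not pass the filter, nor in the difference of responses with DESeq2; that difference could not be fitted from 2 groups for any member.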

Other observations

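Of the 3 tested genes nearest to HDAC9 on either side on chromosome 7, looked at after seeing the data, AHR, which encodes the aryl hydrocarbon receptor (16916359 to 17346152), was higher in E5 than in control cells under vehicle by log2 3.59 ± 0.113, adjusted p = 1.4e-13 by edgeR, where HDAC9 stood at -1.86. Under drug AHR rose in control cells by 1.30 ± 0.117, adjusted p = 4.7e-08 by edgeR, and in E5 cells it stood at 0.23, adjusted p = 0.061. MACC1, on the other side of HDAC9 (20134655 to 20217404), moved the same way as HDAC9 on few reads, with sums of 33 reads under vehicle and 66 under drug in control cells, and of 3 and 20 reads in E5 cells. It rose in control cells under drug by 1.02 ± 0.370, adjusted p = 0.019, and under drug was lower in E5 than in control cells at -1.78 ± 0.432, adjusted p = 0.0011 by edgeR. SNX13, the nearest tested protein-coding gene before HDAC9 (17790761 to 17940501), fell in control cells at -0.60 ± 0.117, adjusted p = 0.00026, and POLR1F, the nearest tested gene after it (19695461 to 19709037), rose by 0.34 ± 0.10, adjusted p = 0.0067 by edgeR.

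The sirtuin SIRT1, a NAD-dependent deacetylase, was lower in E5 than in control cells by log2 -0.87 ± 0.077 under vehicle, adjusted p = 6.5e-08, and by -1.32 ± 0.075 under drug, adjusted p = 2.3e-10 by edgeR. SIRT7, the nucleolar sirtuin, was higher by 0.54 ± 0.109, adjusted p = 0.00063, and 0.49 ± 0.103, adjusted p = 0.00068 by edgeR. The antisense gene HDAC2-AS2 had 37 reads over the control vehicle, 86 over the control FOLFIRINOX, 12 over the E5 vehicle and 52 over the E5 FOLFIRINOX libraries, and HDAC9-AS1 had 0 in each group.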
